A study of Mus musculus with 22 samples.

Results

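The genes described here are 9 complement components and regulators: C1RA, C1S1, C2, C3, C3AR1, C4B, CFB, CFD and SERPING1. They were chosen with earlier results of these data known and were taken by symbol. All 9 were rows of both count tables, which list 24401 genes for skin and blood and 21596 genes for cultured keratinocytes. RNA-seq was done on nonlesional skin and whole blood of 8 mice and on 6 primary keratinocyte cultures of tail origin. The transgenic groups (VGLL3_TG) carried K5-VGLL3, in which the keratin 5 promoter, active in basal keratinocytes of epidermis and hair follicles, drives the transcription cofactor VGLL3. The control groups (WT) were wild type. Skin and blood came from 4 transgenic and 4 wild-type animals matched for age, whose age is not given in the sources used here; libraries 1 and 2 of each genotype were from males and libraries 3 and 4 from females. The 3 transgenic cultures (libraries 2, 3 and 5) were male, and of the 3 wild-type cultures libraries 1 and 4 were female and library 6 male. The cultures came from littermates aged 23 days and were expanded for 3 days. The title presents the animals as a model of cutaneous and systemic lupus and calls VGLL3 a female-biased factor.

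Complement is a cascade of plasma and tissue proteins that tags microbes, immune complexes and dying cells. In the classical pathway, C1q bound to antibody activates the proteases C1r and C1s, which cleave C4 and C2. In the alternative pathway, factor D cleaves factor B. Both routes split C3, whose small fragment C3a signals through the receptor C3AR1 on myeloid cells, and the C1 inhibitor encoded by SERPING1 blocks C1r and C1s. The liver makes most plasma complement, fat makes most factor D, and fibroblasts, macrophages and keratinocytes make components locally. Complement deposited with antibody along the epidermal base is a known feature of lupus skin.

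Total counts were 19600892 to 40678246 in skin, 11197265 to 18235483 in blood and 33412093 to 51877437 in keratinocytes, and these totals set the counting precision of low genes. VGLL3, the targeted gene, had 92.2 to 778 CPM (counts scaled to library size) in transgenic skin and 43.6 to 92.4 CPM in wild-type skin (edgeR adjusted p = 0.239), and 406 to 499 CPM against 191 to 225 CPM in keratinocytes (adjusted p = 0.000716). The 10 epidermal markers summed to 8682 to 20309 CPM in skin and 39000 to 42481 CPM in keratinocytes, and haemoglobin transcripts took 55.1% to 75.9% of blood counts. Skin libraries differed in hair growth genes. The 16 hair follicle markers summed to 13.3 to 16.7 CPM in transgenic libraries 1, 3 and 4 and to 3925 CPM in library 2, and to 11.7 CPM in wild-type library 2 and 7817 to 55477 CPM in the other wild-type libraries. In blood, transgenic library 2 stood apart through liver transcripts, with the albumin gene ALB at 905 CPM against 0.0561 to 147 CPM in the other 7 libraries. Its 8 fibroblast markers summed to 72.8 CPM, against 2.79 to 7.3 CPM in the other transgenic libraries and 32.5 to 86.1 CPM in wild-type blood.

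In nonlesional skin all 9 complement genes had a higher fitted level in transgenic than in wild-type animals, and none of these differences passed the test. The largest was that of C3, at 3.39-fold, and the classical proteases C1RA and C1S1 were 1.86-fold and 1.90-fold higher. With edgeR's quasi-likelihood test and a Benjamini-Hochberg adjusted p under 0.05 as the threshold, 0 of the 9 passed, where 2 of 17901 genes (0.0112%) passed as higher and 0 as lower. At an unadjusted p under 0.05 there were 6 of the 9 and 3035 of all 17901 genes. The median log2 fold change was 0.79 over the 9 and -0.01 over all genes tested. Because the 9 were chosen with earlier results of these data known, their shared direction and median are no support of their own. By DESeq2, C1RA, C1S1, C3, C4B and CFD passed as higher, where 675 of 18623 genes (3.62%) did, and by limma-voom 0 of the 9 passed.

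Among the classical proteases, C1RA (chr6:124512405-124523443, mm10) encodes C1r, which C1q activates first. In skin it had 116, 151, 111 and 92.6 CPM in transgenic libraries 1 to 4 and 78.1, 67.8, 53.8 and 54.4 CPM in wild-type libraries 1 to 4. Every transgenic value lay above every wild-type value (log2 fold change 0.89, SE 0.13, adjusted p = 0.115). C1S1 (chr6:124530345-124542359), its neighbour on chromosome 6, encodes C1s, which C1r activates and which cleaves C4 and C2. It had 266, 316, 200 and 177 CPM in transgenic and 135, 159, 88.8 and 118 CPM in wild-type skin. Here too the genotypes did not overlap (log2 fold change 0.93, SE 0.15, adjusted p = 0.138). The near copies C1RB and C1S2, which share 48.0% and 21.8% of the 50-base words of C1RA and C1S1, had 0 to 2 and 3 to 25 counts in skin, and the antisense model Gm16567 covers 18.4% of C1S1 exon bases. Of the 9 genes, C1RA, C1S1 and C3 were higher without overlap, as were 700 of the 17901 genes tested (3.91%).

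C4B (chr17:34728380-34743882) encodes C4, the substrate of C1s whose large fragment attaches to surfaces. It had 1175, 561, 349 and 395 CPM in transgenic and 407, 456, 219 and 256 CPM in wild-type skin. Transgenic libraries 1 and 2 were above all wild-type libraries, and libraries 3 and 4 lay within the wild-type range (log2 fold change 0.83, SE 0.25, adjusted p = 0.227). The neighbouring copy C4A shares 34.6% of the 50-base words of the C4B transcripts, and it had 16 to 41 counts in skin, so the split of reads between them is uncertain. C2 (chr17:34862604-34898265) encodes the protease subunit that joins C4b in the C3 convertase. It had 17.7, 32.2, 19.0 and 16.1 CPM in transgenic and 18.3, 23.8, 8.54 and 10.4 CPM in wild-type skin. The genotypes overlapped, and library 2 was the highest of both (log2 fold change 0.57, SE 0.25, adjusted p = 0.298).

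C3 (chr17:57203970-57228136) encodes the central component that all pathways cleave. It had 2345, 1090, 1427 and 1202 CPM in transgenic and 793, 592, 342 and 224 CPM in wild-type skin. The lowest transgenic value was above the highest wild-type value (log2 fold change 1.76, SE 0.34, adjusted p = 0.173). Among libraries low in hair follicle genes, transgenic 1, 3 and 4 had 2345, 1427 and 1202 CPM and wild-type 2 had 592 CPM. Among those high in them, transgenic 2 had 1090 CPM and wild-type 1, 3 and 4 had 793, 342 and 224 CPM. Each level held 1 library of a genotype, so no test was made within it. Once each library's hair follicle level was a covariate, the log2 fold change of C3 was 1.41 (adjusted p = 0.401).

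CFB (chr17:34856374-34862518) encodes factor B, the alternative pathway counterpart of C2 and its neighbour. It was near the limit of the assay, with 1.7, 0.313, 0.693 and 0.648 CPM in transgenic and 0.889, 0.239, 0.371 and 0.643 CPM in wild-type skin. The genotypes overlapped, and its direction rested on transgenic library 1 (log2 fold change 0.62, SE 0.61, adjusted p = 0.609, and -0.04 without that library). In the GENCODE M21 annotation, the gene model Gm20547 (chr17:34856412-34882042, same strand) spans both genes and covers 79.5% of CFB exon bases and 42.8% of C2 exon bases, and it is not a row of the tables. How the counting treated reads that fall in both models is not given in the sources used here, and its effect on the levels of CFB and C2 was not tested.

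CFD (chr10:79890853-79892655) encodes factor D, or adipsin, the protease that cleaves factor B and made mainly by fat cells. It had 2128, 1578, 1542 and 909 CPM in transgenic and 1108, 1426, 535 and 670 CPM in wild-type skin. The ranges overlapped, since transgenic library 4 was below wild-type libraries 1 and 2 (log2 fold change 0.79, SE 0.25, adjusted p = 0.237). The 8 adipocyte markers summed to 1720 to 2774 CPM in transgenic and 1228 to 3494 CPM in wild-type skin. SERPING1 (chr2:84765387-84775444) had 1185, 1005, 921 and 728 CPM in transgenic and 717, 1141, 346 and 347 CPM in wild-type skin. Wild-type library 2, the one low in hair follicle genes, was within the transgenic range (log2 fold change 0.74, SE 0.28, adjusted p = 0.262; 0.34 after adding hair follicle level to the model). C3AR1 (chr6:122847138-122856161), the C3a receptor, had 26.3, 13.1, 23.1 and 28.7 CPM in transgenic and 6.03, 19.1, 19.6 and 30.3 CPM in wild-type skin. The ranges overlapped, and the fitted difference was within its error (log2 fold change 0.35, SE 0.40, adjusted p = 0.665).

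**Figure D1:**
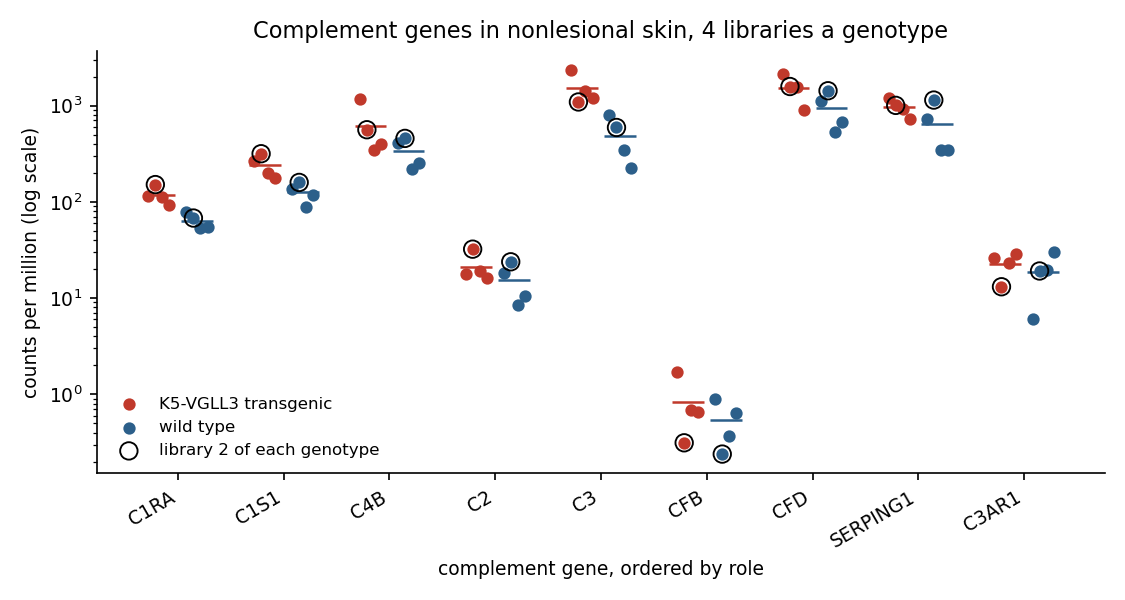
CPM (log axis) of the 9 complement genes in 4 transgenic and 4 wild-type skin libraries; short lines are means and rings mark library 2 of each genotype. C1RA, C1S1 and C3 show no overlap between genotypes, and the ringed SERPING1 value of wild type, 1141 CPM, lies within the transgenic range of 728 to 1185 CPM.

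Scaled by length to RPKM (CPM per kilobase of exon) of the gene's exons, the levels in skin differed widely between genes. In wild-type skin the mean was 1014 RPKM for CFD, 274 for SERPING1, 94.9 for C3, 58.8 for C4B, 39.9 for C1S1, 21.3 for C1RA, 4.36 for C3AR1, 3.94 for C2 and 0.19 for CFB. Transgenic skin gave 1669 RPKM for CFD, 413 for SERPING1, 295 for C3, 109 for C4B, 76.6 for C1S1, 39.5 for C1RA, 5.49 for C2, 5.29 for C3AR1 and 0.297 for CFB. The order was the same in both genotypes except for C2 and C3AR1, which changed places and whose libraries overlapped. Factor D and the C1 inhibitor were thus the most abundant of these transcripts per length, and factor B was the least.

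No gene of the 13 marker lists passed in skin. Of lists whose sums did not overlap between genotypes, the 12 interferon-gamma response genes summed to 547 to 891 CPM in transgenic and 242 to 414 CPM in wild-type libraries, and the 8 T cell markers to 48.4 to 103 CPM and 15.3 to 41.1 CPM. The 8 macrophage markers gave 335 to 1120 CPM and 280 to 866 CPM, and the 8 fibroblast markers gave 11141 to 20344 CPM and 6882 to 94735 CPM, both with overlap. The part of these genes and cells in the complement levels was not tested, and in bulk tissue fewer cells of a type and less RNA per cell cannot be told apart. With both libraries numbered 2 left out, C1RA (0.79, adjusted p = 0.0246), C1S1 (0.89, adjusted p = 0.0208), C3 (1.98, adjusted p = 0.0129), C4B (0.92, adjusted p = 0.0427) and SERPING1 (1.06, adjusted p = 0.026) passed as log2 fold changes, where 1348 of 18418 genes (7.32%) passed as higher, but genotype and hair follicle genes then cannot be told apart.

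Beyond the 9, the fixed lists of the cascade held 58 genes, of which 43 including the 9 were tested in skin. None passed; 34 were positive and 9 negative, their median was 0.38 (log2), and 8798 of all 17901 genes were positive. The C1q chains C1QA and C1QB both had log2 fold changes of 0.57 (adjusted p = 0.554 and 0.583). In the lectin pathway, which starts on sugars, all 4 tested genes were positive, among them the collectin COLEC11 (1.47, adjusted p = 0.157) and the protease MASP1 (1.55, adjusted p = 0.255). Properdin, encoded by CFP, gave 0.25 (adjusted p = 0.741). Of the terminal genes, HC, which encodes C5, gave 2.47 (adjusted p = 0.279) and C7 gave -1.06 (adjusted p = 0.54). The soluble regulators SUSD4 (-1.58, adjusted p = 0.244) and CPN2 (-3.20, adjusted p = 0.306) were negative, and the membrane regulators CR1L (0.34, adjusted p = 0.237) and CD59B (0.53, adjusted p = 0.407) were positive. The complement receptor chains ITGAX (2.17, adjusted p = 0.173) and ITGB2 (1.2, adjusted p = 0.223) were positive as well.

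Across the 8 skin libraries, likeness was measured as the root mean square difference of centred log2 CPM among 14475 genes outside the complement lists, and it includes the genotype difference itself. PITX3 (0.28), FAM131B (0.34) and SCD1 (0.35), a lipid desaturase, were nearest to C3. APBA2, TMEM252 and FAM107A (0.23 to 0.31) were nearest to C4B. MS4A7, KCNK13 and POU2F2 (each 0.21) were nearest to C3AR1, and TRF (0.13), IL1R2 (0.14) and GALNT16 (0.16) to CFD. Among 33 other listed complement genes with a mean of at least 1 CPM, COLEC11 was the closest to C3 (0.45), CD59B to C4B (0.24) and SERPING1 to CFD (0.21). Nearest to C3AR1 were the complement receptor chain ITGAM (0.226) and the C1q chains C1QA (0.265) and C1QC (0.285), while the nearest of the 9 was C1S1 (0.90).

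In cultured keratinocytes, the cells in which the keratin 5 promoter is active, C1S1, C1RA, C3 and C3AR1 rose with the transgene. They were the 4 of the 9 with enough counts to be tested, and all 4 passed (edgeR adjusted p under 0.05), where 1028 of 14451 genes (7.11%) passed as higher and 1169 (8.09%) as lower. None of the 4 overlapped between genotypes, which held as higher for 2561 of 14451 genes (17.7%). The 4 are those that passed a filter on low counts, which a gene high in only 3 libraries can pass, so their number is no support of its own.

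C1S1 had 148, 131 and 76.7 CPM in transgenic libraries 2, 3 and 5 and 30, 28.9 and 25.7 CPM in wild-type libraries 1, 4 and 6. Transgenic library 5 was the lowest of its group and still above all wild-type cultures. The rise was 4.20-fold (log2 fold change 2.07, SE 0.23, adjusted p = 0.00191). C1RA had 10.6, 10.7 and 7.24 CPM against 5.25, 5.48 and 5.8 CPM. It rose 1.72-fold, again least in library 5 (log2 fold change 0.79, SE 0.17, adjusted p = 0.0206). C3 had 80.7, 66.2 and 38.6 CPM against 28.3, 32.4 and 30.9 CPM. It rose 2.02-fold, with library 5 close to the wild-type cultures (log2 fold change 1.01, SE 0.24, adjusted p = 0.0312).

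C3AR1 had 30, 29 and 24 counts in the transgenic cultures and 1, 0 and 0 counts in the wild-type cultures. It was present in all transgenic cultures at 0.453 to 0.905 CPM and at most at 0.0215 CPM in wild type. The ratio over the summed counts was 83.7, with an exact 95% binomial interval of 14.6 to 3340 that covers counting error only. The fitted log2 fold change was 5.99 (SE 0.72, adjusted p = 0.00255), the second highest of all genes tested, and depends on a prior count.

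**Figure D2:**
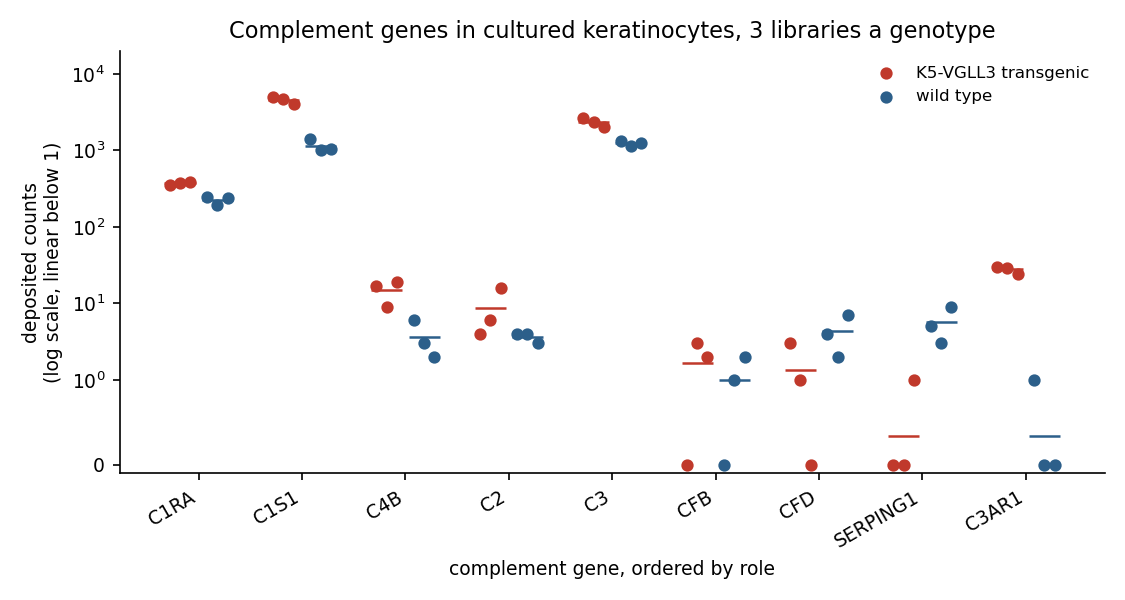
Deposited counts (log axis, linear below 1) of the 9 complement genes in 3 transgenic and 3 wild-type keratinocyte cultures; short lines are means. C3AR1 reads 24 to 30 counts in transgenic and 0 to 1 in wild-type cultures, and SERPING1 reads 0 to 1 and 3 to 9.

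Genes known from myeloid cells also differed between the cultures. The 7 macrophage markers in the table summed to 11.3 to 14.4 CPM in transgenic and 13 to 17.9 CPM in wild-type cultures, a sum carried by CD68 and CD14. Of the 4 that could be tested, MERTK rose (log2 fold change 1.29, adjusted p = 0.0283), CSF1R gave 0.45 (adjusted p = 0.225), CD68 gave -0.53 (adjusted p = 0.189) and CD14, lower in CPM in every transgenic culture, gave -0.35 (adjusted p = 0.129). Among the rest, MSR1 had 6, 7 and 16 counts against 0 in each wild-type culture, and ADGRE1 had 5 and 2 counts in all. Looked up after the values were seen, the leukocyte gene PTPRC had 2, 8 and 16 against 4, 1 and 0 counts, and the lysozyme gene LYZ2 had 82, 81 and 168 against 7, 8 and 5 counts (log2 fold change 3.99, adjusted p = 0.000485). CD74, of antigen-presenting cells, rose as well (2.62, adjusted p = 0.00334), and the Langerhans cell gene CD207 had 2, 2 and 13 counts against 0 in each wild-type culture. ITGAX had 8, 7 and 24 counts and LAPTM5 had 12, 9 and 39 counts in the transgenic cultures. C1QA had 4, 5 and 1 counts against 0 in each wild-type culture. C1QB had 7, 1 and 5 counts against 2, 1 and 0, and C1QC had 2, 0 and 3 against 1, 0 and 0. The order of the transgenic cultures in CPM differed between these genes. LYZ2, CD74, CD207, ITGAX and LAPTM5 were highest in library 5, where C3AR1 and C1QA were lowest. MERTK, CSF1R, C1QB and C1QC were highest in library 2, as was C3AR1. The part of myeloid cells in the rise of C3AR1 was not tested. For the other genes, the 7 fibroblast markers in the table summed to 7.87 to 30.2 CPM in transgenic and 12.2 to 15.8 CPM in wild-type cultures.

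The remaining 5 genes were too low for the test in keratinocytes. C4B had 17, 9 and 19 counts in transgenic and 6, 3 and 2 in wild-type cultures, and the copy C4A had 30 to 42 and 28 to 47 counts. C2 had 4, 6 and 16 against 4, 4 and 3 counts, CFB 0, 3 and 2 against 0, 1 and 2, and CFD 3, 1 and 0 against 4, 2 and 7. SERPING1, among the most abundant of these genes in skin, had 0, 0 and 1 counts in transgenic and 5, 3 and 9 in wild-type cultures. Of these 5 genes, C4B and C2 were higher and SERPING1 lower in CPM without overlap between genotypes. For C2, the lowest transgenic and the highest wild-type culture both had 4 counts and differed only in library size. Among the 14451 genes tested, 2561 (17.7%) were higher and 2678 (18.5%) lower without overlap. These 5 genes did not pass that count filter, so the shares are not their own background. For SERPING1 the summed counts gave a 16.9-fold lower level in transgenic cultures, with an exact 95% binomial interval of 2.64 to 705 for counting error only.

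Since the transgenic cultures were all male, genotype and sex were partly confounded. In any keratinocyte fit with a sex term, the genotype difference rests on wild-type culture 6, the only male of its group. With a sex term, C1S1 (2.20, adjusted p = 0.0325) and C3AR1 (7.86, adjusted p = 0.0418) still passed, and C1RA (0.71, adjusted p = 0.19) and C3 (1, adjusted p = 0.213) did not. C1RA and C3 also missed the threshold when any single culture other than transgenic 5 was left out (adjusted p from 0.0541 to 0.084 for C1RA and from 0.0818 to 0.0995 for C3), and had adjusted p of 0.000606 and 0.00017 without transgenic 5. With limma-voom C3 missed the threshold as well (0.92, adjusted p = 0.0616).

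Of the 58 genes of the cascade lists, 18 passed the filter on low counts and were tested in keratinocytes. Of these, 6 passed as higher and 1 as lower, where 7.11% and 8.09% of all 14451 genes tested did. The median log2 fold change was 0.46, against 0.01 over all genes. The 4 genes described above are among the 6. A gene high in only 3 libraries can pass the filter, so these counts and this median are no support of their own. Besides the 4 above, the terminal pathway inhibitor clusterin, CLU, rose from 47.3 ± 15.5 to 117 ± 20.1 CPM (SD, n = 3; log2 fold change 1.31, adjusted p = 0.0136). CPN1, the catalytic subunit of the carboxypeptidase that trims C3a and C5a, rose from 6.05 ± 1.2 to 14.3 ± 2.89 CPM (1.24, adjusted p = 0.0071). SUSD4, a complement inhibitor, fell from 5.66 ± 0.22 to 1.93 ± 0.21 CPM (-1.55, adjusted p = 0.000746). With a sex term, CLU (1.96, adjusted p = 0.0108) and SUSD4 (-1.54, adjusted p = 0.014) still passed and CPN1 did not (1, adjusted p = 0.11). CLU missed the threshold without wild-type culture 4 (adjusted p = 0.0584). In lists with no gene past the threshold, the ficolin FCNA gave 1.31 (adjusted p = 0.0567), C8G 0.19 (adjusted p = 0.797), CR1L 0.23 (adjusted p = 0.0668) and CD55 0.42 (adjusted p = 0.183).

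The promoters of the 3 component genes that rose in keratinocytes, and of the receptor, were examined because each of these genes passed the test there. Whether they share a control was not tested. RefSeq promoters (build GRCm38.p6) were on hand for 5 of the 9 genes, C1RA, C1S1, C3, C3AR1 and CFD. The 250 bases before the start site follow for 3 of the 4, 5′ to 3′ on the gene's strand, with motif matches in capitals.
C1S1, chr6:124542360-124542609, minus strand: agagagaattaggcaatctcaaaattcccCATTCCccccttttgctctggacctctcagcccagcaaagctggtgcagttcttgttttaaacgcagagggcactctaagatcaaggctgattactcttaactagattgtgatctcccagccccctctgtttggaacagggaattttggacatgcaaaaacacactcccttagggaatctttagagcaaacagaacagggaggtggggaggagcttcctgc
C3, chr17:57228137-57228386, minus strand: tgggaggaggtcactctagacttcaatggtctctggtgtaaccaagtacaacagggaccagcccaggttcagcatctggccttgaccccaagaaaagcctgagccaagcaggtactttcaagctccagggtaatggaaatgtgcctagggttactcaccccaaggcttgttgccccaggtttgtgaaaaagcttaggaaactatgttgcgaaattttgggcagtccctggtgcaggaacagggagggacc
C3AR1, chr6:122856158-122856407, minus strand: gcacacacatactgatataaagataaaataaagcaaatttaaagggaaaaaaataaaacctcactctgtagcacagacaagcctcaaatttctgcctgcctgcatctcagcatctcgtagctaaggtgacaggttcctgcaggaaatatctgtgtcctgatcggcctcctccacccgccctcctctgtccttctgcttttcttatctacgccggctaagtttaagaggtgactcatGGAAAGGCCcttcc
These windows were searched on both strands for 4 motifs: GGAATG, the core bound by TEAD factors, the DNA-binding partners of VGLL3; GGNNTTTCC for NF-kB; TTCNNNGAA for STAT factors; and GAAANNGAA for interferon regulatory factors. The capitals in C1S1 are a TEAD core in reverse, CATTCC, at 221 to 216 bases before the start, and those in C3AR1 an NF-kB match, GGAAAGGCC, at 14 to 6 bases before it. C1RA, which is not shown, had CATTCC at 74 to 69 bases before its RefSeq start. That window (chr6:124512371-124512620) lies mostly inside the C1RA span given above, and the match is within that span. The C3 window held none of the 4 motifs, nor did that of a second C1S1 start in the table (chr6:124542322-124542571), which is not shown. Among 32851 promoter windows of the same length, 12.6% held the TEAD core, 4.93% the NF-kB motif, 7.02% the STAT motif and 7.13% the interferon regulatory factor motif. A match is a description of these letters and not a binding site.

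In whole blood the complement transcripts were low and uneven, and CFD was the one that fell. Of the 9 genes, C1S1, C3, C3AR1, C4B, CFD and SERPING1 had enough counts to be tested; 0 passed as higher, where 24 of 11174 genes (0.215%) did, and CFD alone passed as lower, where 61 (0.546%) did. At an unadjusted p under 0.05 there were C3 and CFD, and DESeq2 also called CFD alone. Factor D counts were 5, 8, 1 and 3 in transgenic libraries 1 to 4 and 18, 29, 24 and 14 in wild-type libraries, which made 0.196, 0.421, 0.0842 and 0.219 CPM and 1.01, 3.67, 1.54 and 1.80 CPM. Every transgenic value was below every wild-type value, as for 566 of 11174 genes (5.07%). CFD was 8.34-fold lower (log2 fold change -3.06, SE 0.55, adjusted p = 0.0475). The call was lost with limma-voom (-2.67, adjusted p = 0.141), with RLE size factors (-3.03) and when any library except transgenic 2 was left out in turn (adjusted p from 0.0534 to 0.24), while the log2 fold change stayed between -3.46 and -2.60.

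Transcripts foreign to blood differed between genotypes, in a direction that depended on the tissue. All 9 tested epidermal markers fell (median log2 fold change -4.78), and of the 6 muscle markers, all with negative values, 3 fell. Of the 6 tested fibroblast markers, also all negative (median -2.4), LUM and POSTN fell. The 7 tested hepatocyte markers (median 1.96) and the 3 tested hair follicle markers (median 0.81) were positive, and none passed. The epidermal markers summed to 2.02 to 4.05 CPM in transgenic and 56.6 to 174 CPM in wild-type blood, and the 6 muscle markers to 3.22 to 5.98 CPM and 17.6 to 33.4 CPM. The 8 adipocyte markers summed to 6.28 to 10.1 CPM and 8.58 to 15.4 CPM, with overlap, and of the 2 that could be tested LIPE gave 0.42 (adjusted p = 0.485) and FABP4 -0.78 (adjusted p = 0.637). The other adipocyte markers were too low for the test; ADIPOQ, PLIN1, CIDEC, RETN and CIDEA were lower in all transgenic libraries, the first with 0, 5, 0 and 0 counts against 11, 6, 6 and 9, and LEP overlapped. Their part in the CFD difference was not tested.

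C3 had 115, 282, 49.3 and 92.2 CPM in transgenic and 34.9, 13.6, 50.7 and 27.5 CPM in wild-type blood. Transgenic library 3 was below wild-type library 3. Thus none of the 6 tested genes among the 9 was higher without overlap, where 412 of 11174 genes (3.69%) were. Of the wider complement lists, ITGAM, ITGB2 and CD93 were. The fitted C3 difference did not pass (log2 fold change 1.94, SE 0.57, adjusted p = 0.169, and 1.44 with adjusted p = 0.0727 without transgenic library 2). The 9 neutrophil markers summed to 2633 to 8525 CPM in transgenic and 228 to 2231 CPM in wild-type blood, and their part was not tested.

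C4B had 2.36, 72.3, 42.0 and 8.25 CPM in transgenic and 1.74, 1.01, 6.1 and 43.5 CPM in wild-type blood. Its spread within each genotype exceeded the difference between them (log2 fold change 2.12, SE 1.42, adjusted p = 0.501), and without transgenic library 2 the difference was 0.26. C1S1 had 0.0393, 6.89, 0.589 and 0.146 CPM against 0.561, 0.633, 0.385 and 1.54 CPM. Its fitted difference of 0.89 rested on transgenic library 2 and was -1.92 without it (adjusted p = 0.779 and 0.181). SERPING1 had 0.236, 23.0, 0.337 and 0.876 CPM against 2.13, 1.90, 2.06 and 4.63 CPM. Apart from transgenic library 2, all transgenic values lay below all wild-type values: the log2 fold change was 0.39 (adjusted p = 0.917) with that library and -2.61 (adjusted p = 0.0188) without it. C3AR1 had 1.37, 5.78, 3.79 and 1.53 CPM against 1.35, 1.65, 1.03 and 4.25 CPM, with overlap (log2 fold change 0.67, SE 0.60, adjusted p = 0.621). C1RA, C2 and CFB did not reach the count filter, with at most 12, 6 and 1 counts per library outside transgenic library 2, which had 83, 38 and 2 counts.

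**Figure D3:**
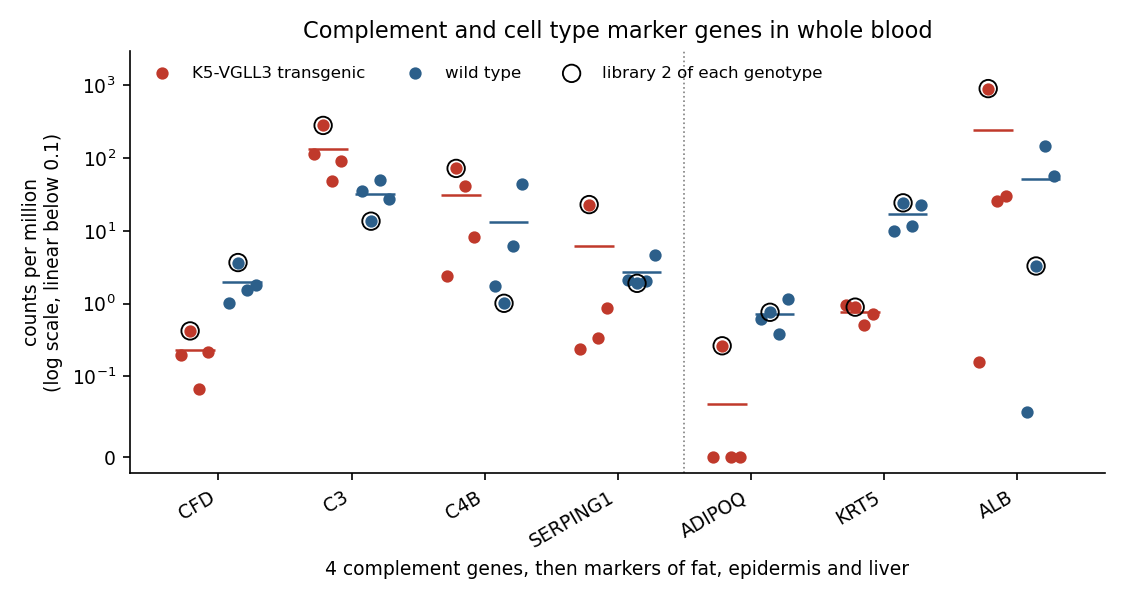
CPM (log axis, linear below 0.1) in 4 transgenic and 4 wild-type blood libraries for CFD, C3, C4B and SERPING1 and, right of the dotted line, for ADIPOQ of fat, KRT5 of epidermis and ALB of liver; short lines are means and rings mark library 2 of each genotype. CFD and KRT5 are lower in all transgenic libraries, and the ringed transgenic library has the highest ALB (905 CPM), SERPING1 (23.0 CPM) and C4B (72.3 CPM).

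Of the 30 cascade genes that passed the filter on low counts and were tested in blood, 25 were positive and only CFD passed. Their median log2 fold change was 0.82, against -0.04 over all genes. A gene high in only some libraries can pass the filter, so the count of positive genes and this median are no support of their own. Components made in the liver were high in transgenic library 2, with HC at 16.3 CPM and VTN, vitronectin, at 34.0 CPM, and their part in this median was not tested. HC gave 2.19 (adjusted p = 0.562) and VTN 2.53 (adjusted p = 0.59). Among the genes with the smallest p in the remaining lists were C1QB (1.88, adjusted p = 0.625), C1QC (1.72, adjusted p = 0.652), FCNA (1.38, adjusted p = 0.686), COLEC12 (0.46, adjusted p = 0.895), C8G (0.41, adjusted p = 0.855), CD55 (-0.42, adjusted p = 0.27) and CD59A (0.59, adjusted p = 0.441). The phagocyte receptors CD93 (1.28, adjusted p = 0.0522) and ITGAM (1.72, adjusted p = 0.0784) were closest to the threshold among the genes that missed it.

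Skin and blood of the same 8 animals allowed the genotype effect to be compared between tissues, with animal as a block. The effect on CFD was higher in skin than in blood by 3.81 on the log2 scale (SE 0.55, adjusted p = 0.0119), and CFD alone of the 9 passed, where 167 of 17803 genes (0.938%) passed as higher. The value stayed between 3.5 and 4.26 when each animal was left out in turn, and passed each time. The part of the epidermal, muscle and fat transcripts of wild-type blood in this difference was not tested. The other 8 differences ran from -1.09 for C4B to 1.77 for SERPING1 with SEs of 0.74 to 2.85, none passing; that of SERPING1 was 3.30 (adjusted p = 0.0379) without transgenic animal 2. The genotype effect on VGLL3 itself was higher in skin than in blood by 4.00 (edgeR adjusted p = 0.0151). Its effect passed in neither tissue alone. Skin gave 1.81 (adjusted p = 0.239), and at the lowest 0.85 with 1 library left out. Blood gave -2.13 (adjusted p = 0.296), where VGLL3 was near the floor, with 17 counts over the transgenic and 37 over the wild-type libraries.

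**Figure D4:**
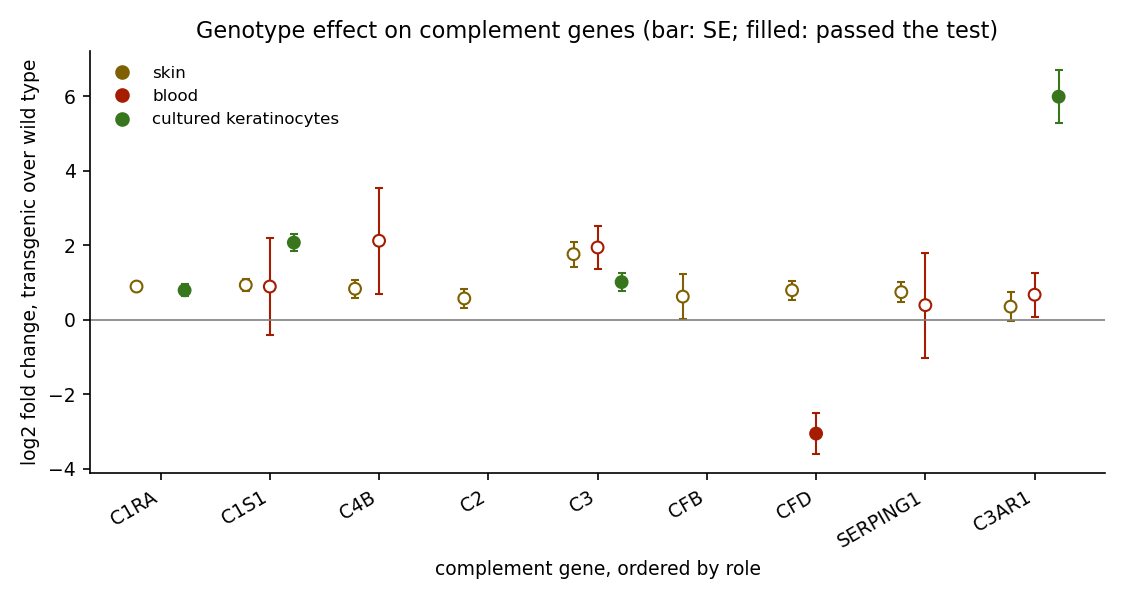
Log2 fold change of transgenic over wild type with its SE for each complement gene in skin, blood and cultured keratinocytes where it was tested; filled points passed the edgeR test at an adjusted p under 0.05. The filled points are CFD in blood (-3.06) and C1RA, C1S1, C3 and C3AR1 in keratinocytes (0.79, 2.07, 1.01 and 5.99), and all skin points are positive and open.

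C1RA, C1S1 and C3 had positive fitted effects in skin and in keratinocytes, of 0.89 and 0.79, 0.93 and 2.07, and 1.76 and 1.01 respectively. The keratinocyte and skin tables were fitted separately and the difference between these effects was not tested. Because VGLL3 is named as female-biased, the interaction of sex and genotype was tested in each of the 2 tissues, with 2 animals per sex and genotype. By edgeR no gene passed in either tissue, with 1579 of 18726 genes in skin and 361 of 11778 in blood at an unadjusted p under 0.05, among them 1 of 9 and 2 of 6 complement genes. DESeq2 called 134 genes in skin and 4 in blood, none of them among the 9. In skin the term was positive for 5 and negative for 4 of the 9, with a median of 0.04. It was positive for SERPING1 (1.01, SE 0.42, adjusted p = 0.555) and for C3 (0.90, SE 0.60, adjusted p = 0.602), that is, the fitted genotype difference was higher in females. It was negative for C3AR1 (-0.59), CFB (-0.46), C4B (-0.37) and C1S1 (-0.12). The term was also negative for all 16 hair follicle markers (median -11.4, 15 at an unadjusted p under 0.05), and their part was not tested. In blood it was negative for all 6 tested genes, among them C3 (-2.17) and SERPING1 (-4.87), and transgenic library 2, from a male, held the highest level of both.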

How the data were processed

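Stranded mRNA libraries were sequenced on an Illumina instrument, per the labels' protocols, with a different RNA isolation kit for skin, blood and keratinocytes. The deposited values were raw counts per gene symbol in 2 tables, and mm10, STAR 2.5.2, HTSeq 0.6.1 and DESeq2 are named, without roles, in the submitters' processing notes. The sources used here do not give the annotation or strand setting of the counting. Groups followed the labels; the labelled sex of all 22 libraries matched the sex-linked genes, and no 2 replicates agreed within sampling noise (lowest chi-square per degree of freedom 4.51 over 30 pairs). Skin and blood replicates of a group have separate animal tags. Each keratinocyte culture has its own cell line tag, which names no animal.

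Genotypes were compared over all genes by quasi-likelihood in edgeR 4.0.16 (R 4.3.3; TMM, filterByExpr by design, Benjamini-Hochberg adjusted p under 0.05), adjusting for sex in both tissues, with no covariate in keratinocytes and animal as a block for skin minus blood. CPM used TMM-scaled library sizes, and RPKM the exon union of GENCODE M21. Likeness used log2 CPM (prior count 2) of genes with a mean of at least 1 CPM. Alternatives were DESeq2 1.42.0, limma-voom 3.58.1, RLE size factors, no count filter or the filter by group (added after seeing the data), other covariates and each library left out. The fits were tested on simulated counts. Named were all 9 genes, other complement genes that passed (otherwise the 2 with the smallest p per list) and VGLL3. A gene that this rule names in blood is not reported here. The genes and lists were chosen with earlier results of these data known. Figures used matplotlib 3.10.9.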

Additional observations from a re-analysis of the deposited data

Results flagged for a closer look

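Among the 4 libraries of a group, 7 values of the 9 complement genes lay apart by Dixon's test at its 95% level. There were 36 groups of 4 tested in skin and blood. Chance flags about 1 in 20 only for independent, normally distributed values, which low, skewed CPM and several flags in 1 library are not. A lone nonzero library among libraries at 0 is always flagged, as in both flags of CFB, so those carry no information. All 7 flagged values were in blood. In transgenic library 2, C1RA was at 4.36 CPM against 0.0842 to 0.511 CPM in the other 3, C1S1 at 6.89 CPM against 0.0393 to 0.589 CPM, SERPING1 at 23.0 CPM against 0.236 to 0.876 CPM, and CFB at 0.105 CPM, which is 2 counts, against 0. In wild-type library 4, C4B was at 43.5 CPM against 1.01 to 6.1 CPM, SERPING1 at 4.63 CPM against 1.90 to 2.13 CPM, and CFB at 0.129 CPM, which is 1 count, against 0. The ALB level was 905 CPM in transgenic library 2 and 57.2 CPM in wild-type library 4. The fibroblast markers summed to 72.8 CPM and 78.8 CPM in these libraries. The part of liver and fibroblast transcripts in the flagged values was not tested.

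The genotype effect on CFD differed between skin and blood of the same animals by 3.81 on the log2 scale (edgeR adjusted p = 0.0119), with higher fitted levels in transgenic skin and lower ones in transgenic blood.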

How the results depend on the processing

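In skin, edgeR called 2 genes and none of the 9; DESeq2 called 1082 and 5, limma-voom 1 gene, the fit without a sex term 0 and the fit with the hair follicle score 5, and leaving out 1 library gave 0 to 278 genes and 0 of the 9. With both libraries numbered 2 left out, a setting chosen after seeing the data, 2978 genes and 5 of the 9 passed, and hair follicle level then follows genotype. In blood, 85 genes and CFD were called; DESeq2 called 442 genes, the fit without a sex term 162, limma-voom 21 and none of the 9, RLE size factors none of the 9, and no low-count filter 1101 and 3, while leaving out 1 library gave 3 to 611 genes and 0 to 2 of the 9. In keratinocytes, 2197 genes and 4 of the 9 were called; with a sex term 561 and 2 were, and leaving out 1 culture gave 880 to 3651 and 2 to 4. For skin minus blood, 215 genes and CFD were called, 980 by DESeq2, and 78 to 869 genes and 1 to 2 of the 9 with 1 animal left out. The sex-by-genotype term in skin went from 0 genes to 134 with DESeq2; in blood it went from 0 to 4 with DESeq2, to 332 genes and 5 of the 9 without the filter, and to 0 to 148 genes and 0 to 1 of the 9 with 1 library left out. Apart from fewer samples or more genes tested, the cause of these changes was not tested.

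The animal numbers, shared between genotypes, did not consistently pair the skin or blood libraries. Same-numbered libraries correlated at -0.464 to 0.0822 in skin and -0.249 to 0.407 in blood. Libraries of different numbers correlated at -0.359 to 0.446 in skin and -0.372 to 0.26 in blood. The highest blood correlation, 0.407, was that of the libraries numbered 1. With the replicate block, skin gave 0 genes, CFD in blood still passed (-3.00, adjusted p = 0.0315), and C1S1 (-0.18) and SERPING1 (-1.05) changed sign in blood; without the animal block, C1S1 changed sign in skin minus blood (-0.26) and CFD still passed (3.91, adjusted p = 0.00371). No replicate block was possible in keratinocytes because no number is shared between the genotypes.

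Direction held for the 4 genes called in keratinocytes and for CFD in blood and in skin minus blood under every alternative run. In skin, CFB alone changed sign (-0.04 to 0.97 with 1 library left out). In blood, limma-voom changed the sign of C1S1 (-0.66) and SERPING1 (-0.81), and leaving out 1 library gave -1.92 to 1.64 and -2.61 to 1.2. For skin minus blood, DESeq2 gave 0.01 for C1RA, and with 1 animal left out the uncalled values ran from -1.09 to 0.97 for C1RA, -0.09 to 2.63 for C1S1, -0.94 to 0.73 for C2, -0.56 to 0.43 for C3, -0.53 to 0.54 for C3AR1 and -4.19 to 5.3 for CFB. For sex by genotype in skin they ran from -0.18 to 0.24 for C1RA, -0.31 to 0.09 for C1S1, -0.81 to 0.22 for C4B and -1.69 to 1.19 for CFB, and in blood from -5.07 to 2.36 for C1S1, -1.96 to 0.22 for C3AR1, -1.64 to 0.24 for CFD and -5.78 to 0.7 for SERPING1. Depth limits CFB, and in blood CFD, whose highest transgenic count was 8.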

Other observations

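The C4 genes split unlike in the 2 tables. C4B exceeded C4A in every skin library, whereas in the keratinocyte cultures C4A had 28 to 47 counts and C4B 2 to 19, and C4A did not differ by genotype there (log2 fold change 0.08, SE 0.25, edgeR adjusted p = 0.858). In mice, C4A is known as the copy whose product lacks haemolytic complement activity.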
